A study of Homo sapiens with 3 samples.

Results

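The cells described here are HT29 cells from a Caco-2/HT29 co-culture that carried the highest share of transcripts for KRT16, KRT17, LY6D, PI3 and SPRR1B, and they are called keratin-high cells below. They are 382 of 15560 cells kept in 3 single-cell RNA libraries. Caco-2 and HT29 are both human colorectal carcinoma lines. Caco-2 cells at passage 8 and HT29 cells at passage 13 were seeded 9:1 in the apical chamber of Transwells, and every co-culture was harvested on day 23. Control 1 and control 2 were untreated co-cultures, and the LPS library came from a co-culture that received 1 ng/ml of E. coli O111:B4 lipopolysaccharide from day 22 for 24 h. Each library stands for 1 Transwell and there was 1 LPS library, so the effect of LPS has no replicate. Cells were detached with trypsin, frozen and thawed before capture, and RNA was counted at its 3′ end with the 10x Genomics assay, which tags each captured molecule with a unique molecular identifier (UMI).

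Stratified squamous epithelia such as the epidermis build a keratin network anchored at desmosomes and, in their upper layers, a cornified envelope of cross-linked proteins. KRT16 and KRT17 are type I keratins induced in injured or hyperproliferative epidermis, SPRR1B is a small proline-rich precursor of the cornified envelope, PI3 (elafin) is an elastase inhibitor of the WAP family that is also cross-linked into the envelope, and LY6D is a GPI-anchored surface protein of the Ly6 family. A normal intestinal epithelium is a simple columnar epithelium that uses KRT8, KRT18, KRT19 and KRT20 instead.

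Members were chosen in each library separately. Barcodes with at least 1500 UMIs, 700 genes and at most 20% of UMIs on mitochondrial genes were kept, which left 5093, 5307 and 5160 cells in control 1, control 2 and LPS. Cells with at least 0.1% of their UMIs on 8 HT29 genes (LYZ, KRT20, LCN2, CD24, CD44, CST6, TCN1 and BMP4), under 0.5% on the Caco-2 apolipoproteins APOA1 and APOC3 and under 5 UMIs of the goblet genes MUC2 and FCGBP formed the HT29 pool of 700, 1000 and 846 cells. The 15% of the pool with the highest share of UMIs on the 5 named genes (the score) were the keratin-high cells, 105, 150 and 127 of them, and the other 595, 850 and 719 pool cells are the rest they were compared with. Because each library gave the same percentage of its pool, the number of members says nothing about frequency. Levels are given as CPM, the UMIs of a gene in a class divided by all UMIs of that class in the library and scaled to a total of 1e+06. All UMIs of the members came to 656467, 581870 and 518858. Since the values of the 5 genes selected the cells, those genes are described and not tested.

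The score was a continuum with no gap at its limit. The lowest member had 0.138% of its UMIs on the 5 genes in control 1, 0.0832% in control 2 and 0.0971% in LPS. The highest cell of the rest had 0.137%, 0.0831% and 0.0954%. The median member was at 0.311%, 0.177% and 0.177%, and the highest at 7.84%, 4.78% and 4.30%. Within 20% of the limit lay 36, 50 and 36 pool cells, and 46.6%, 57.0% and 57.4% of the pool had no UMI of any of the 5 genes. The keratin-high cells were chosen as the upper range of this score, and whether a distinct group lies among them was not tested. A fixed limit of 0.1% would have taken 18.9% of the pool in control 1 (exact 95% interval 16.02 to 21.96%), 13.0% in control 2 (10.98 to 15.24%) and 14.8% in LPS (12.45 to 17.35%), and 1% was reached by 18, 6 and 8 cells. These intervals cover counting error only.

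**Figure D1:**
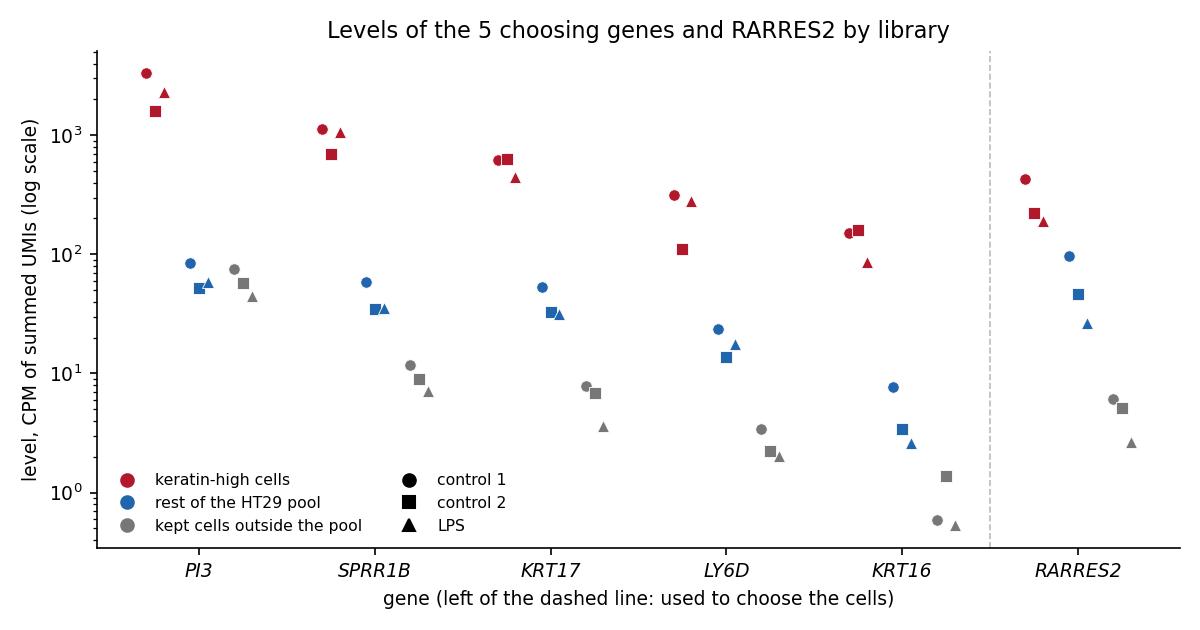
Level in CPM (log axis) of the 5 choosing genes and RARRES2, with 1 point per library for keratin-high cells, the rest of the HT29 pool and the kept cells outside the pool. PI3 in the rest lies close to its level in cells outside the pool, while the other 4 choosing genes and RARRES2 are higher in the rest than outside.

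PI3 was the most abundant of the 5 genes. Its level in the keratin-high cells was 3310, 1607 and 2286 CPM in control 1, control 2 and LPS, and it made up 60.0%, 50.1% and 54.9% of the summed UMIs of the 5 genes. It gave over 50% of a cell's own UMIs of the 5 genes in 51, 54 and 46 members, 48.6%, 36.0% and 36.2% of them. In the rest PI3 was at 83.9, 52.1 and 58.0 CPM, and in cells outside the pool at 74.7, 57.6 and 44.5 CPM, so that it was higher in the rest than outside in control 1 and LPS and lower in control 2. A PI3 UMI was found in 88.6%, 71.3% and 66.9% of members, in 20.8%, 14.7% and 16.1% of the rest and in 23.5%, 15.9% and 11.6% of cells outside the pool, at median depths of 5281, 3516.5 and 3494 UMIs for members, 5232, 3830.5 and 3778 for the rest and 5543, 4307 and 3667 outside. With every cell thinned to 1500 UMIs these shares were 76.2%, 58.0% and 55.9%, then 7.39%, 5.53% and 7.65%, then 8.97%, 6.41% and 5.03%. The thinned share in the rest was below that outside the pool in both controls and above it in LPS. The part of free RNA in the droplets was not tested.

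SPRR1B was the second most abundant, at 1132, 693 and 1062 CPM in members and 59.0, 34.7 and 35.7 CPM in the rest. KRT17 was at 614, 634 and 449 CPM against 52.8, 32.6 and 31.8 CPM, and LY6D at 312, 112 and 281 CPM against 23.4, 13.8 and 17.8 CPM. KRT16 was the least abundant, at 151, 162 and 86.7 CPM against 7.63, 3.39 and 2.59 CPM. Few cells held most of the KRT16, KRT17 and PI3 transcripts. The 10 highest members of each library had 81.8%, 69.1% and 66.7% of the KRT16 UMIs of all members, 59.8%, 58.5% and 69.1% of the KRT17 UMIs and 56.3%, 51.4% and 66.9% of the PI3 UMIs, but 51.7%, 47.7% and 41.8% of the LY6D UMIs and 43.3%, 25.8% and 40.3% of the SPRR1B UMIs. At least 3 of the 5 genes were detected in 67.6%, 42.7% and 40.9% of members, and 13, 5 and 11 members held all 5. At 1500 UMIs per cell 31.4%, 19.3% and 17.3% of members held at least 3, against 0.504% of the rest in control 1 and 0% in the other libraries. Only 1 of the 5 was detected in 4, 30 and 22 members, and the lowest member had 5, 2 and 2 UMIs of the 5 genes together.

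Each of the 5 genes was also left out in turn, and members were chosen again by the other 4. The 5 genes were put together with results of these data known, so the values are a description, with no test. KRT16 was at 151, 157 and 80.5 CPM in cells chosen without it and at 7.63, 4.17 and 3.57 CPM in the rest, a log2 fold change of 4.69 (SE 0.20, n = 3 libraries). PI3 was at 2480, 1114 and 1932 CPM against 260, 117 and 93.0 CPM, a log2 fold change of 3.60 (SE 0.11). The libraries of the 2 classes did not overlap for either gene. The log2 fold change was 3.19 for SPRR1B (SE 0.093), 3.05 for KRT17 (SE 0.12) and 2.89 for LY6D (SE 0.13). Of the 382 members, 377 were chosen again without KRT16 and 298 without PI3.

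SPRR1B and its neighbour SPRR3 lie in the epidermal differentiation complex of chromosome 1, SPRR1B at chr1:153031203-153032900 and SPRR3 at chr1:153001747-153003856 (GRCh38, plus strand). SERPINB7, a serine protease inhibitor of skin, lies at chr18:63752935-63805376 in a cluster of serpin genes. The 180 bases before their starts are shown because these genes were high in the same cells, and they were picked because each holds a match to TGANTCA, the letters bound by AP-1 factors in squamous promoters. Capitals mark TGANTCA, and in SPRR3 also TATAAA. Sequences are from RefSeq on GRCh38.p14, 5′ to 3′ on the plus strand, at chr1:153031023-153031202, chr1:153001569-153001748 and chr18:63775238-63775417, and the SERPINB7 one precedes 1 of its 3 starts.
SPRR1B: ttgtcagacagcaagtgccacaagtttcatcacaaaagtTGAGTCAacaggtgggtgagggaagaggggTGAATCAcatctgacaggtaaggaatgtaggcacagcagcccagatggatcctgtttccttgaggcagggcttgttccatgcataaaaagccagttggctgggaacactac
SPRR3: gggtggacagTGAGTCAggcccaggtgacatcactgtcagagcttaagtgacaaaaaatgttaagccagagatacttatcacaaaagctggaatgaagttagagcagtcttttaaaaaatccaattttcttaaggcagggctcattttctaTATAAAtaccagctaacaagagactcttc
SERPINB7: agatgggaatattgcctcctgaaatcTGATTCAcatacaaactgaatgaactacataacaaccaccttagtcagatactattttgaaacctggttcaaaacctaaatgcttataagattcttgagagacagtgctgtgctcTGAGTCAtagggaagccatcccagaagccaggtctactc
The matches begin 141 and 111 bases before the start in SPRR1B, 170 in SPRR3 and 154 and 39 in SERPINB7. The TATAAA of SPRR3 begins 29 bases before its start. On either strand TGANTCA was found in this window in 4.92% of all 35116 promoters of the table, 3.13% of those of tested genes, 5.51% of those of genes higher in keratin-high cells and 3.73% of those of genes lower. For TATAAA the shares were 7.83%, 4.08%, 5.92% and 8.22%. AACNGGTT, the letters bound by grainyhead factors, was in 1.04%, 0.739%, 0.822% and 0.768%. Of RARRES2 and the 15 genes with the highest fold changes, 11 had a promoter in the table, and TGANTCA was in 3 of them, RNASE1, SERPINB7 and SPRR3. These are matches of letters and no measurement of binding. Of KRT16, KRT17, LY6D, PI3 and SPRR1B, only SPRR1B had a promoter in the table.

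Every other gene was compared between keratin-high cells and the rest with edgeR's quasi-likelihood test on UMIs summed per class and library, with the library as a block. Of 9964 genes tested, 1807 (18.1%) passed an adjusted p of 0.05. Of these 1026 (10.3% of those tested) were higher in keratin-high cells and 781 (7.84%) lower, and 97.6% of the calls had the same direction in all 3 libraries. Among them 311 were higher and 269 lower by at least 2-fold, and the median log2 fold change of all genes was -0.01. Genes that defined the pool have a fold change but no test. A gene entered the test when at least 3 of the 6 sums reached 5.35 CPM, so low genes could enter through 1 class alone. That held for 223 genes with all 3 libraries at that level only in keratin-high cells (77 of them called higher) and 1295 only in the rest (175 called lower), and such calls are in part fixed by the filter. These genes are said below to reach the filter only in that class. Of the other 8446 genes 11.2% were higher and 7.17% lower.

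RARRES2 (chemerin), a retinoid-responsive chemoattractant precursor made by skin keratinocytes and not used to choose the cells, was at 431, 223 and 191 CPM in keratin-high cells and 97.4, 46.9 and 26.6 CPM in the rest, with no overlap between classes. Its log2 fold change was 2.37 (SE 0.12). RARRES2 was named as a marker together with the 5 choosing genes, with results of these data known. Its value is therefore a description and no independent support. At 1500 UMIs it was detected in 40.0%, 26.0% and 22.8% of members, 12.3%, 7.18% and 3.62% of the rest and 0.524%, 0.650% and 0.301% of cells outside the pool. It lies at chr7:150338317-150341662, away from the 5 choosing genes.

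**Figure D2:**
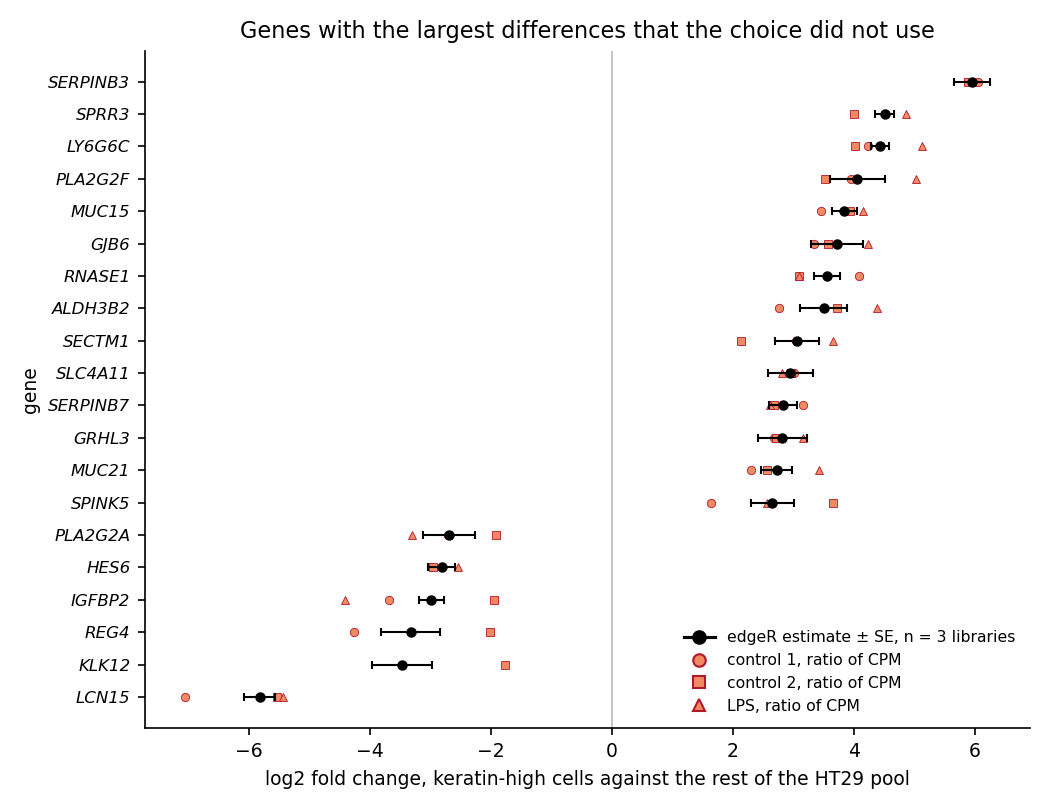
Log2 fold change (x axis) of named genes with the largest differences between keratin-high cells and the rest (y axis), with the edgeR estimate and SE over 3 libraries and the CPM ratio of each library. SERPINB3, SPRR3 and LY6G6C lie farthest to the right and LCN15 farthest to the left. Genes with 3 or fewer UMIs in members are not shown, and a library at 0 has no ratio.

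SERPINB3, SPRR3 and LY6G6C led the genes that rose. SERPINB3 (squamous cell carcinoma antigen 1, a cysteine protease inhibitor) was at 94.4, 46.4 and 100 CPM in keratin-high cells and 1.41, 0.782 and 1.62 CPM in the rest, a log2 fold change of 5.95 (SE 0.29, adjusted p = 2.62e-24). It was a transcript of few cells, 18, 13 and 12 members, and it reached the filter only in keratin-high cells, so its call is in part fixed by the filter. SPRR3, a cornified envelope protein of oesophagus, was at 331, 113 and 199 CPM against 14.4, 7.04 and 6.81 CPM (log2 fold change 4.52, SE 0.16, adjusted p = 1.89e-31), and its 10 highest members held 85.7%, 72.7% and 81.6% of its UMIs. LY6G6C, a Ly6 family gene of the MHC region on chromosome 6, was at 320, 170 and 260 CPM against 16.9, 10.4 and 7.46 CPM (log2 fold change 4.44, SE 0.15). For these 3 genes the lowest member library was far above the highest library of the rest.

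The membrane mucins MUC15 and MUC21 rose by 3.84 and 2.73 on the log2 scale and reached the filter only in keratin-high cells, and MUC15 was at 102, 75.6 and 127 CPM in members against 9.32, 4.95 and 7.13 CPM in the rest. GJB6 (connexin 30, a gap junction protein of skin and inner ear) rose by 3.72, the secreted phospholipase PLA2G2F by 4.06, the ribonuclease RNASE1 by 3.56, the aldehyde dehydrogenase ALDH3B2 by 3.50, SECTM1 by 3.07 and SLC4A11, of the bicarbonate transporter family, by 2.95. SERPINB7 was at 60.9, 55.0 and 71.3 CPM against 6.78, 8.60 and 11.7 CPM (log2 fold change 2.83, SE 0.23), and SPINK5, the skin protease inhibitor lost in Netherton syndrome, rose by 2.66. GRHL3, a grainyhead factor of epidermal barrier formation, was at 28.9, 15.5 and 17.3 CPM against 4.52, 2.35 and 1.95 CPM (log2 fold change 2.82, SE 0.40, adjusted p = 1.52e-07). GRHL3 and SPINK5 also reached the filter only in keratin-high cells, so their calls are in part fixed by it.

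Several markers of stratified epithelia, picked after their values were seen, were absent or close to it. TP63 (the master factor of basal squamous cells), the basal keratin KRT5 and the suprabasal keratins KRT1 and KRT4 had 0 UMIs in the 382 members, which allows up to 1.71 CPM over the summed members. The basal keratin KRT14 had 7 UMIs and KRT13 had 13. KRT6A, the usual type II partner of KRT16 and KRT17, had 26 UMIs in members and 0 in the rest and outside the pool. The envelope precursors IVL (involucrin) and SPRR1A had 18 and 15 UMIs. Of 26 cornified envelope genes in the files 14 had no UMI in any member, and of 20 stratified keratins 9 had none. The cells are called keratin-high after 2 of the 5 genes that chose them and not as a squamous cell type, although PI3 was the most abundant of the 5.

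All 4 cornified envelope genes abundant enough to be tested rose, against 10.3% of all genes. Besides SPRR3 these were CNFN (cornifelin), at 174, 120 and 114 CPM against 56.5, 46.9 and 49.0 CPM (log2 fold change 1.46), EVPL (envoplakin, 1.19) and PPL (periplakin, 0.81). The 3 stratified keratins tested rose too, among them KRT15, found in basal cells, and KRT10, found in suprabasal cells. KRT80 was at 122, 84.2 and 69.4 CPM against 22.0, 25.5 and 22.7 CPM (log2 fold change 2.02, SE 0.17, adjusted p = 2.41e-14), KRT15 was at 60.9, 70.5 and 82.9 CPM against 29.1, 21.6 and 25.6 CPM (1.51) and KRT10 at 296, 261 and 247 CPM against 223, 224 and 198 CPM (0.35).

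The simple epithelial keratins rose as well, 5 of 5 against 10.3% of all genes. KRT8, KRT18 and KRT19 were abundant in the rest, while KRT7 and KRT23 were at means of 14.3 and 2.79 CPM there, and KRT23 reached the filter only in keratin-high cells. KRT19 was at 6541, 6703 and 6969 CPM in keratin-high cells and 4091, 3843 and 3355 CPM in the rest (log2 fold change 0.88, SE 0.066, adjusted p = 1.29e-16), with no overlap. KRT8 rose by 0.74, KRT18 by 0.46, KRT7 by 1.04 and KRT23 by 2.79. KRT20, which helped to define the pool, was at 586, 545 and 617 CPM against 537, 519 and 534 CPM, a log2 fold change of 0.17 that was not tested. In the 128 members with the highest score KRT17 was at 1194 CPM ± 207 (SD, n = 3) and KRT20 at 431 ± 103, and in the other 254 members KRT17 was at 252 ± 80.5 and KRT20 at 657 ± 40.8. KRT17 counts toward the score, so its difference between these members is in part fixed by the split. Neither difference was tested. The values of KRT17 and KRT20 are 3′ tag counts, with 1 tag for each molecule of either gene.

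Among 13 genes tested that lie within 500 kb of KRT16 and KRT17 in the type I keratin region of chromosome 17 (KRT16 at chr17:41609778-41615899, KRT17 at chr17:41619442-41624842), KRT15, KRT19, JUP and CNP were higher in keratin-high cells and EIF1 was lower, where 10.3% of all genes tested were higher and 7.84% lower. Near PI3 (chr20:45174902-45176544), 4 of 9 genes tested were higher, namely SLPI, WFDC2, SDC4 and PIGT. SLPI and WFDC2 belong with PI3 to the WAP family of chromosome 20. Near LY6D 3 of 7 were higher, the Ly6 genes PSCA and LY6E and the neuronal gene ARC. SPRR3 was the only gene tested near SPRR1B.

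Protease inhibitors were high beyond PI3. Of 12 WAP, serpin and cystatin genes tested 7 rose and 3 fell, against 10.3% and 7.84% of all genes. SERPINB3 and SPINK5 among those that rose reached the filter only in keratin-high cells. SLPI, the secretory leukocyte protease inhibitor, was at 1472, 796 and 757 CPM in keratin-high cells and 214, 153 and 131 CPM in the rest, a log2 fold change of 2.61 (SE 0.086, adjusted p = 2.08e-32), with no overlap. WFDC2 was at 2556, 1138 and 1403 CPM against 688, 432 and 356 CPM (1.80), and cystatin B (CSTB) rose by 0.86. Those that fell were SPINK1 (a pancreatic trypsin inhibitor, by 1.39), SERPINA1 (alpha-1 antitrypsin, by 0.83) and SERPINB1. CST6 (cystatin M/E), a skin inhibitor used to define the pool, was at 219, 137 and 137 CPM against 38.1, 23.5 and 12.6 CPM. The kallikreins KLK10 and KLK11, serine proteases of epidermal shedding, rose by 1.36 and 1.11, while KLK12, which reached the filter only in the rest, fell by 3.47. KLK11 was at 586, 490 and 428 CPM in members and 256, 236 and 224 CPM in the rest.

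All 7 genes of the Ly6 and uPAR family that were tested rose, against 10.3% of all genes. After LY6G6C the largest was LYPD3 (C4.4A, a squamous adhesion protein), at 60.9, 34.4 and 46.3 CPM against 8.47, 17.7 and 8.75 CPM (log2 fold change 2.06). PSCA rose by 1.61, LY6E by 1.08 and PLAUR (the urokinase receptor) by 0.62. At least 7 Ly6 genes and at least 6 antiprotease genes were higher under every alternative run.

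Of 8 desmosome genes 6 rose and none fell, against 10.3% and 7.84% of all genes. PERP, a tetraspan desmosome protein that p63 and p53 regulate, was at 1098, 1060 and 892 CPM against 435, 398 and 384 CPM (log2 fold change 1.36, SE 0.076, adjusted p = 4.60e-22). PKP1 (plakophilin 1, typical of skin) rose by 2.24 and reached the filter only in keratin-high cells, while JUP (plakoglobin) rose by 0.53 and DSG2 by 0.34. DSP (desmoplakin) was at 277, 270 and 318 CPM against 239, 276 and 268 CPM, a log2 fold change of 0.18 that did not pass (adjusted p = 0.206). Of 13 genes of the hemidesmosome and laminin-332, 7 rose and none fell, among them COL17A1 by 0.79, ITGB4 by 0.73 and LAMB3 by 0.70. ITGB1 did not pass, at 440, 500 and 513 CPM against 516, 538 and 532 CPM.

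S100 and annexin genes were among the most abundant transcripts of these cells. S100A6 was at 23887, 19226 and 18475 CPM in keratin-high cells and 16559, 12998 and 13566 CPM in the rest (log2 fold change 0.55). S100A4 was at 10387, 5890 and 6011 CPM against 4457, 2529 and 2430 CPM (1.28, SE 0.063, adjusted p = 2.62e-24). Of 18 tested, 10 rose and 2 fell, against 10.3% and 7.84% of all genes, and 1 of the 2 (ANXA10) reached the filter only in the rest. S100A11 rose by 0.77, S100A2 by 0.91 and ANXA1 (annexin A1) by 0.90.

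Among transcription factors of the AP-1, grainyhead and squamous groups 11 of 25 rose and 1 fell, against 10.3% and 7.84% of all genes. GRHL3 and ELF5 (16 UMIs in members) reached the filter only in keratin-high cells, and without genes of that kind 9 of 22 rose and 1 fell, against 11.2% and 7.17%. Those that rose included GRHL1 (log2 fold change 1.02), PITX1 (1.13), OVOL1 (0.91), JUNB (0.62), KLF5 (0.37) and FOS (0.24). FOS was at 474, 479 and 503 CPM against 442, 405 and 416 CPM. In place of 11, 6 of the list were higher with no replicate block, and 3 with DESeq2, with thinned cells or with a mitochondrial share under 4%. In the retinoid list 5 of 11 rose and 1 fell, against the same shares. CRABP2, a retinoic acid carrier, was at 1222, 1396 and 1411 CPM against 644, 657 and 575 CPM (1.14, SE 0.074), RARRES3 rose by 1.41 and the receptor RARG by 1.20.

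**Figure D3:**
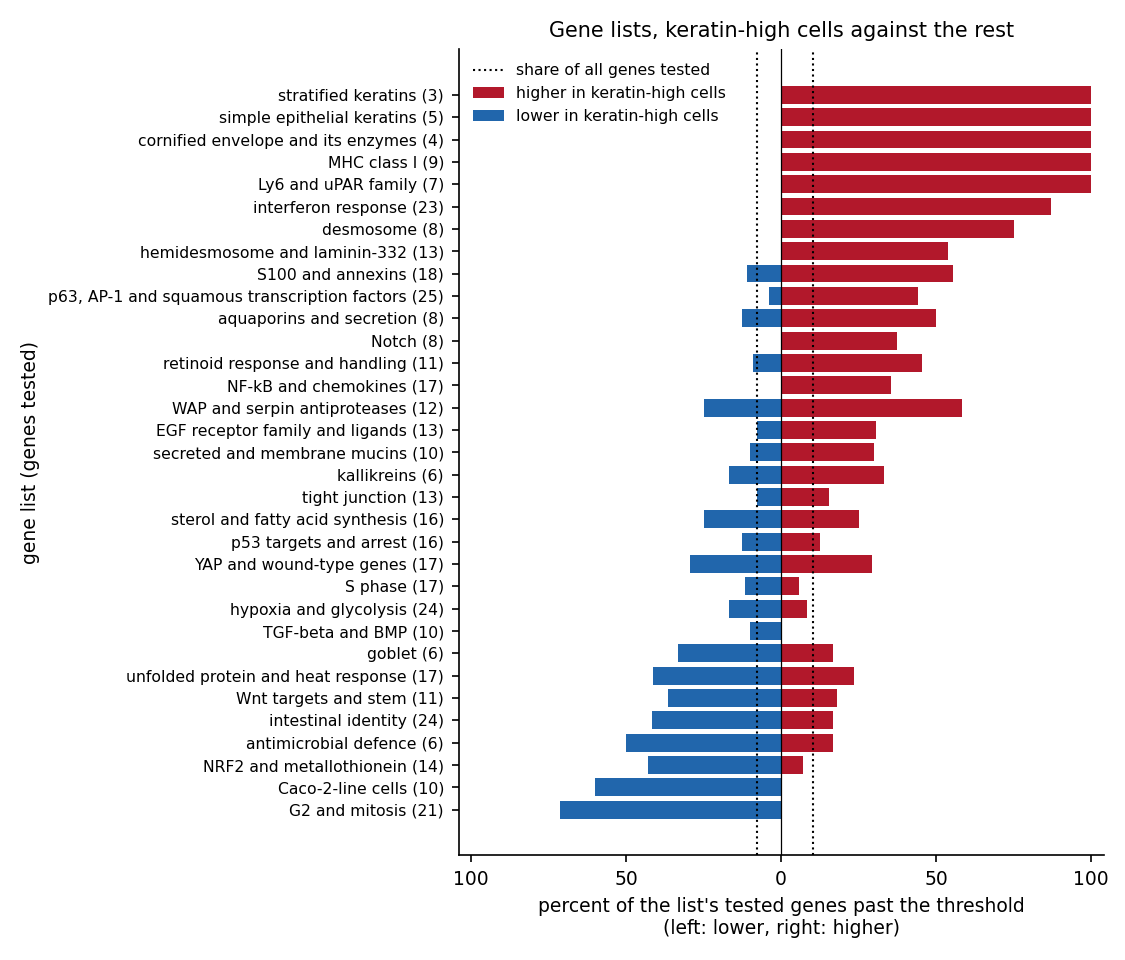
Share of each gene list's tested genes that were higher (right) or lower (left) in keratin-high cells at an adjusted p of 0.05, with the number tested beside each name and dotted lines at the 10.3% and 7.84% of all genes. Keratin, Ly6, MHC class I and interferon lists lie to the right, and the G2 and mitosis list to the left.

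SST, the trypsinogens and LCN15 were among the genes with the largest falls. SST (somatostatin) had 0 UMIs in members and 18.6, 41.7 and 36.6 CPM in the rest, at least 19.0-fold lower taking 3 UMIs over all members as the floor, and GCG (glucagon) was at least 5.26-fold lower. The trypsinogens PRSS1 and PRSS2 had 1 and 3 UMIs in members, with a pooled ratio of rest to members of 128 for PRSS1 (counting interval 22.9 to 5055) and 85.7 for PRSS2 (29.3 to 416). LCN15, a lipocalin of intestinal secretory cells, was at 1.52, 3.44 and 5.78 CPM in members and 203, 160 and 250 CPM in the rest, a log2 fold change of -5.83 (SE 0.26, adjusted p = 2.84e-26). The long noncoding RNA LINC00261 and the aldo-keto reductase AKR1B10 had 2 UMIs each, with ratios of rest to members of 17.7 (4.85 to 147) and 16.6 (4.54 to 138). In each of these genes every member library was below every library of the rest. LCN15, SST, PRSS1, PRSS2 and AKR1B10 were among the genes that reached the filter only in the rest, so their falls are in part fixed by it.

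REG4, of the regenerating family of colonic secretory cells, fell by 3.33, IGFBP2 by 2.99, the proneural target HES6 by 2.82 and the phospholipase PLA2G2A by 2.69 on the log2 scale. REG4 reached the filter only in the rest. TFF3, the goblet trefoil factor, was at 51.8, 158 and 125 CPM against 584, 735 and 615 CPM (log2 fold change -2.54, SE 0.12, adjusted p = 1.02e-24). Of the goblet list 2 of 6 fell (TFF3 and MUC5AC, by 1.31) and 1 rose, where 10.3% of all genes rose and 7.84% fell. SOX4, a factor of secretory and stem-like progenitors, was at 151, 296 and 235 CPM against 729, 690 and 489 CPM (log2 fold change -1.47, SE 0.11). Of 24 genes of intestinal identity 10 fell and 4 rose, against the same shares of all genes, and 1 of the 10 (CDX1) reached the filter only in the rest. AGR2 fell by 0.73, LGALS4 by 0.86 and TFF1 by 1.63, while CEACAM7, a surface protein of mature colonocytes, was at 430, 237 and 320 CPM against 78.0, 79.2 and 93.1 CPM (2.01), and PHGR1 rose by 0.67. CDX2 was at 6.09, 6.87 and 17.3 CPM against 14.7, 12.8 and 19.5 CPM and did not pass.

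Markers of other cell types are given as shares of UMIs. The rule that chose the pool limited APOA1 and APOC3 and the goblet genes MUC2 and FCGBP, so low Caco-2 and goblet shares are in part fixed by it. The median member had 0.0343%, 0.0384% and 0.0551% of its UMIs on the 16 Caco-2 genes, the median cell of the rest 0.0427%, 0.0561% and 0.0703%, and the median cell outside the pool 1.56%, 1.17% and 1.03%. Of the summed UMIs the Caco-2 genes took 0.131%, 0.0667% and 0.135% in members, 0.173%, 0.183% and 0.194% in the rest and 1.86%, 1.52% and 1.46% outside. APOA1, the most abundant of them there, was at 343, 160 and 355 CPM in members against 6205, 4792 and 4186 CPM outside. Goblet genes were at 0.0163%, 0.0226% and 0.0279% in the median member and at 0.0233%, 0.0440% and 0.0376% of summed member UMIs. The median member had enteroendocrine, placental and immune or stromal genes at 0, as had the median cell of the rest and the median cell outside the pool. On the lists of genes by which the study told the lines apart, 15.7% ± 0.773 (SD, n = 3) of member UMIs fell on HT29 genes, 15.3% ± 0.339 of the rest and 9.94% ± 0.142 of cells outside the pool. The Caco-2 genes of those lists took 27.7% ± 0.711, 29.1% ± 0.494 and 39.0% ± 0.264.

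The classes also differed in measures of RNA quality. The median mitochondrial share was 4.13%, 3.67% and 4.71% in keratin-high cells and 2.82%, 2.76% and 3.47% in the rest. The median share on ribosomal protein genes was 11.4%, 12.5% and 12.6% in members, 17.8%, 19.5% and 20.2% in the rest and 33.9%, 34.0% and 33.8% outside the pool. With members and rest limited to a mitochondrial share under 4%, 673 genes passed, and with every cell thinned to 1500 UMIs 647 did, in place of 1807. The 656 and 606 genes that also passed in the full comparison, 36.3% and 33.5% of its calls, kept their direction. Both repeats reuse the same cells or UMIs, so a shared direction among genes passing in both is no independent support. Beyond these repeats, the part of the mitochondrial and ribosomal shares in the differences was not tested. After the 6% of cells with the highest doublet scores in each library had been removed, 3, 0 and 6 members among them, 1714 genes passed.

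Most genes of G2 and mitosis were lower in keratin-high cells. Of 21 genes of G2 and mitosis 15 fell and none rose, against 7.84% of all genes that fell. The filter was reached only in the rest by 14 of the 21, 9 of them among those that fell, and of the other 7 genes 6 fell, against 7.17%. TOP2A (topoisomerase II alpha) was at 24.4, 25.8 and 71.3 CPM in members and 87.0, 111 and 107 CPM in the rest (log2 fold change -1.35, SE 0.18, adjusted p = 4.61e-08). MKI67 was at 6.09, 6.87 and 21.2 CPM against 40.1, 27.1 and 34.4 CPM (-1.61), and CENPF was at 7.62, 8.59 and 28.9 CPM against 51.1, 46.9 and 60.6 CPM (-1.85). The LPS members lay above the members of both controls for all 3 genes, and still below the rest. With DESeq2 5 of the list fell, and with thinned cells 3. Of 17 S phase genes 2 fell and 1 rose, against 7.84% and 10.3% of all genes. In the list of p53 targets and arrest 2 of 16 genes rose and 2 fell, against the same shares of all genes. CDKN1A (p21) was at 279, 282 and 318 CPM against 144, 200 and 167 CPM (0.82) and SFN (14-3-3 sigma), an epithelial cell cycle inhibitor, rose by 0.87.

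**Figure D4:**
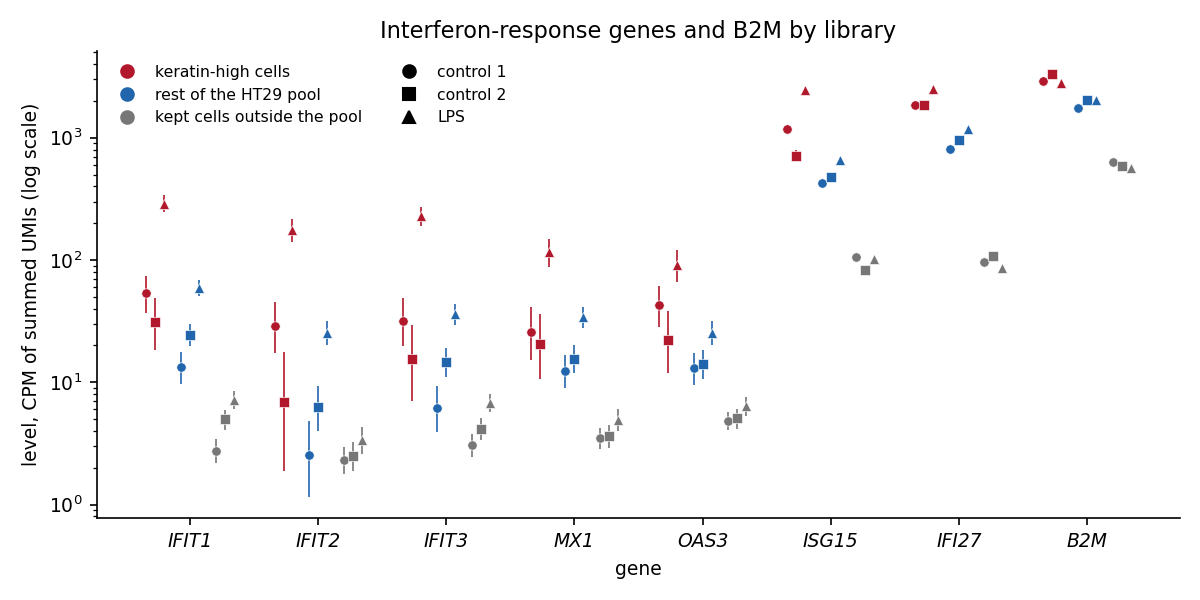
Level in CPM (log axis) of interferon-response genes and B2M, with 1 point per library for keratin-high cells, the rest of the pool and the cells outside it, and bars for exact 95% counting intervals. Levels fall from keratin-high cells to the rest to cells outside the pool, and the LPS library is the highest of the members for the IFIT and MX genes.

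Interferon-response genes were higher in the keratin-high cells of every library. Of 23 tested 20 rose and none fell, against 10.3% of all genes that rose, and 18 of 21 rose without PSMB9 and IFIT2, which reached the filter only in keratin-high cells. The summed level of the list was 5460, 4809 and 8875 CPM in members, 2359, 2771 and 3564 CPM in the rest and 634, 674 and 653 CPM outside the pool. IFI27, its most abundant gene in the controls, was at 1854, 1839 and 2513 CPM against 801, 956 and 1176 CPM (log2 fold change 1.12, SE 0.070, adjusted p = 7.19e-20), and ISG15, a ubiquitin-like modifier, at 1181, 715 and 2453 CPM against 425, 478 and 661 CPM (1.39). The signal was not limited to a few cells, since the median member had 0.477%, 0.354% and 0.481% of its UMIs on the list and the median cell of the rest 0.130%, 0.159% and 0.166%. Without the 5 highest cells of each library the members were still at 5000, 4157 and 7093 CPM. All 9 MHC class I genes tested rose. B2M was at 2919, 3295 and 2800 CPM against 1738, 2048 and 2028 CPM (0.67), HLA-B rose by 0.80 and the peptide transporter TAP1 by 1.05. With the mitochondrial share under 4%, 7 interferon and 4 MHC class I genes were higher, with thinned cells 10 and 3 and with DESeq2 12 and 5.

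Smaller groups moved in part, and their counts stand against 10.3% of all genes that rose and 7.84% that fell. Of 17 NF-kB and chemokine genes 6 rose and none fell, among them CXCL8 (interleukin 8) by 2.15, at 67.0, 13.7 and 7.71 CPM against 9.32, 5.73 and 5.19 CPM, CD14 by 1.46, the interleukin 1 receptor antagonist IL1RN by 1.35 and NFKBIA by 0.61. CXCL8 and IL1B reached the filter only in keratin-high cells, and without them 4 of 15 rose. None of this list passed with thinned cells. In the EGF receptor list 4 of 13 rose and 1 fell, with ERBB2 at 0.78 and the ligands TGFA at 0.85 and AREG at -0.60. NOTCH2 rose by 1.46 and its target HES1 by 0.45 in the Notch list, where 3 of 8 rose. In the list of aquaporins and secretion 4 of 8 rose and 1 fell, and in the mucin list 3 of 10 rose and 1 fell. The aquaporins AQP5, AQP3 and AQP1 rose by 1.93, 1.67 and 1.34, and MUC16 (CA125) by 2.03. In the list of YAP and wound-type genes 5 of 17 rose, with TM4SF1 at 1.08, F3 (tissue factor) at 1.23 and MMP7 at 1.11, and 5 fell.

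**Figure D5:**
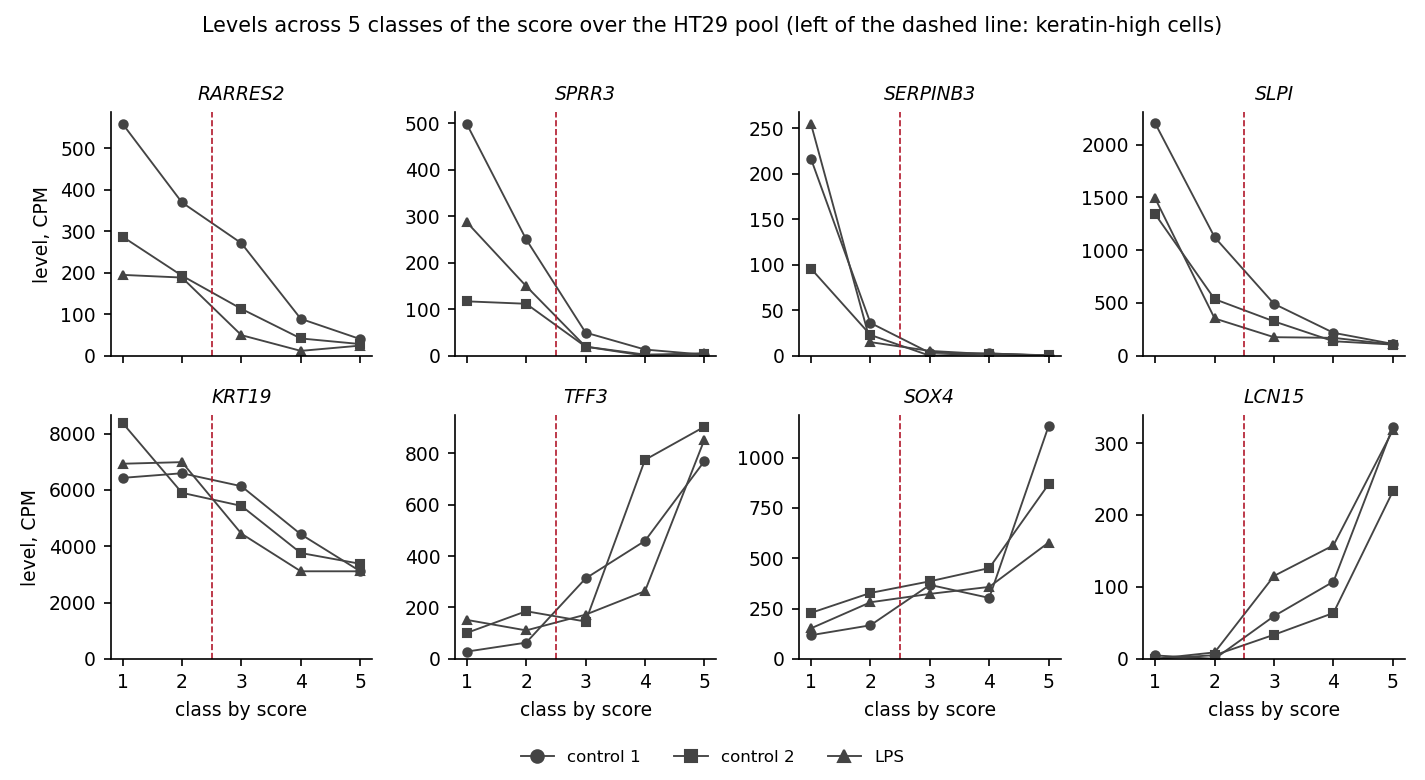
Level in CPM of named genes (panels) across 5 classes of the score in the HT29 pool, with 1 line per library. From left to right the classes are the 128 highest members, the other 254 members, the next 382 cells, the 400 other cells with a UMI of the 5 genes and the 1382 cells with none, and the dashed line marks the limit of the keratin-high cells.

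Several genes, picked after their values were seen, ran with the score across the pool. SLPI fell from 1676 CPM in the 128 members with the highest score to 670 CPM in the other 254 members, 331 CPM in the next 382 pool cells, 175 CPM in the 400 others with a UMI of the 5 genes and 108 CPM in the 1382 cells with none (mean of 3 libraries). RARRES2 ran 347, 250, 145, 47.5 and 30.9 CPM, and KRT19 ran 7249, 6494, 5339, 3766 and 3200 CPM. SERPINB3 was steeper, at 189, 24.6, 2.85, 2.21 and 0.318 CPM. TFF3 ran the other way, at 93.6, 120, 210, 499 and 842 CPM, as did SOX4, at 166, 259, 359, 371 and 868 CPM. Others had no such order. PLAUR ran 303, 408, 357, 238 and 213 CPM and MUC13 ran 150, 369, 333, 307 and 243 CPM. These are descriptions over classes cut from 1 score.

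The members differed with how many of the 5 genes they held. In the 187 members that held at least 3 of the 5 genes SPRR3 was at 296 CPM ± 147 (SD, n = 3), against 74.3 ± 18.8 in the 139 with 2 and 84.0 ± 41.0 in the 56 with 1. SERPINB3 was at 129 ± 49.4, 14.9 ± 8.45 and 0 CPM, and LY6G6C at 379 ± 71.6, 63.8 ± 28.0 and 43.4 ± 11.6. RARRES2 was at 307 ± 134, 260 ± 139 and 157 ± 32.5. The median depth of the members with 1, 2 and at least 3 of the genes was 6782.5, 4635.5 and 5754 UMIs in control 1, 2825.5, 3345 and 4086 in control 2 and 2848.5, 2645 and 4734 in LPS, and the part of depth in these differences was not tested. When members at or over a score of 1% were left out, 1577 genes passed and the log2 fold change of RARRES2 was 2.38.

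Values on either side of the limit are given without a test. The 25 members just inside it in each library had RARRES2 at 223 CPM ± 108 and the 25 cells just outside 204 ± 159. SLPI was at 560 ± 307 and 384 ± 199, KRT19 at 6524 ± 235 and 5837 ± 827, and PERP at 742 ± 134 and 709 ± 185. SPRR3 was at 116 ± 103 and 28.8 ± 42.6. Other genes stood further apart than their spread between libraries, with TGFA at 40.2 ± 3.25 inside and 13.7 ± 6.65 outside, CXCL8 at 26.2 ± 8.25 and 2.88 ± 4.98, and SFN at 282 ± 5.02 and 219 ± 10.3. MMP7 was at 88.7 ± 18.4 and 39.3 ± 28.1 and CEACAM7 at 172 ± 14.8 and 106 ± 36.3. The genes of this paragraph were picked from a larger number after their values were seen, so a gap beyond the spread is no test. With 25 cells a side in each library, CXCL8 and TGFA rest on few UMIs.

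The LPS library was set beside the controls within the keratin-high cells, without a test. Among 2034 genes with at least 50 UMIs in a member library, 31 (1.52%) were at least 1.5-fold above both controls and 22 (1.08%) at least 1.5-fold below both. The controls themselves were at least 1.5-fold apart for 286 genes (14.1%). A gene could meet the minimum of 50 UMIs in 1 library alone, and such calls are in part fixed by the minimum. Among the genes named for LPS, IFIT1, IFIT2, IFIT3, MX1, MX2, TNFSF10, PARP9, IFITM3 and MT2A met it only in LPS. Genes called lower could likewise meet it only in the controls. Of 13 interferon-response genes 8 were higher. MX2 was at 32.0, 24.1 and 187 CPM in members of control 1, control 2 and LPS (exact 95% counting interval for LPS 152 to 228) and at 14.4, 14.3 and 31.8 CPM in the rest. IFIT3 was at 32.0, 15.5 and 227 CPM (188 to 272), 7.11-fold above the nearer control, and at 6.21, 14.6 and 36.0 CPM in the rest. IFIT2 was at 28.9, 6.87 and 175 CPM and IFIT1 at 53.3, 30.9 and 289 CPM. The IFIT1 UMIs came from 15, 11 and 35 members, and 5 cells held 68.6%, 66.7% and 47.3% of them. In LPS the IFIT2 UMIs came from 15 members and the IFIT3 UMIs from 21, and 5 cells held 67.0% and 61.9% of them. In the controls IFIT2 came from 2 and 4 members and IFIT3 from 5 and 7.

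MX1 was 4.47-fold above the nearer control, the death ligand TNFSF10 (TRAIL) 4.03-fold and PARP9 3.26-fold, and ISG15, IRF7 and IFITM3 were also past 1.5-fold. MT2A, a metallothionein, led with 13.7, 10.3 and 119 CPM. In the rest 49 of 7455 genes were higher and 32 lower, and 10 were higher in both classes, among them MT2A, IFIT1, IFIT2, IFIT3, MX1, MX2 and PARP9. Whether LPS changed these genes more in keratin-high cells than in the rest was not tested, since there is 1 LPS library. Of the 5 choosing genes KRT16 was lower in LPS, at 86.7 CPM against 151 and 162 CPM, and it is among the genes counted as lower. Its UMIs helped to choose the members of each library, so this difference depends in part on the choice. The LPS value rests on 45 UMIs, 66.7% of them in the 10 highest members. AQP3 was lower in both classes, at 83.8, 92.8 and 54.0 CPM in members and 31.9, 26.3 and 15.9 CPM in the rest. None of the cornified envelope, keratin, desmosome, Ly6, antiprotease or S100 genes with enough UMIs, the 5 aside, was past 1.5-fold in either direction. SIPA1, with 105, 101 and 38.5 CPM, was 2.63-fold below the nearer control, and the other genes that were lower lay between 1.51 and 1.78-fold.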

How the data were processed

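Single-cell RNA was measured in 2 control libraries and 1 LPS library of the co-culture. The authors mapped the reads to GRCh38 and deposited raw counts of UMIs per gene and barcode, per the file headers made by Cell Ranger 3.1.0, with no normalization. The files hold 5811, 6495 and 6838 barcodes with 33893707, 27934953 and 24185467 UMIs for control 1, control 2 and LPS. Depth limits genes below about 1.71 CPM in members (3 UMIs over all of them). Libraries shared 9, 9 and 11 barcodes by pair, none with equal counts.

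From these counts cells were filtered and chosen as described, without removing doublets, and UMIs were summed per class and library. edgeR 4.0.16 in R 4.3.3 fitted the 6 sums with its low-count filter, TMM scaling, the library as a block and the quasi-likelihood test, with Benjamini-Hochberg adjustment over all genes tested, and a threshold of 0.05. Members and rest of the same library share a Transwell, which is the pairing, and p-values measure the spread between 3 libraries. The genes that chose the cells or the pool were taken out of the test. The fit was tested on simulated data with known changes. Cells were thinned to 1500 UMIs for shares. Gene positions are from GENCODE 44 and promoters from RefSeq.

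The members, gene lists and tests were chosen with earlier results of these data known. Genes named are the 5 choosing genes and RARRES2, list genes past the threshold or among the 4 most abundant of a list (those a list's account needed, with the others as counts), the 15 highest and 10 lowest fold changes of at least 20 CPM, and up to 8 genes in each direction for LPS, with 6 of the lower ones given as a range. Genes shown over score classes and at the limit, CEACAM7, TFF3, DEFB1 and the list genes at 0 were picked after their values were seen. Alternatives covered the block, DESeq2 1.42.0, scaling, filters, the share chosen, doublets (scanpy 1.11.5), depth and each library left out. Apart from its lists of genes that tell Caco-2 from HT29, the study's own comparisons and its other data sets were not used here, and a few of the genes so chosen are not reported here.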

Additional observations from a re-analysis of the deposited data

Results flagged for a closer look

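MT2A, a metallothionein, stood apart in the direction of its difference between keratin-high cells and the rest. In both controls it was lower in keratin-high cells, at 13.7 and 10.3 CPM against 21.2 and 21.6 CPM in the rest. These control values rest on 9 UMIs from 4 members and 6 UMIs from 6 members. Their exact counting intervals were 6.27 to 26.0 CPM and 3.78 to 22.4 CPM. Each interval contains the value of the rest, so neither control difference exceeds counting error. In the LPS library MT2A was higher, at 119 CPM against 33.7 CPM, a difference of 85.8 CPM. There 5 cells held 46.8% of the 62 UMIs of the members. The change of direction between the controls and the LPS library was not tested, since there is 1 LPS library. Its log2 fold change over the 3 libraries, 0.77, came from the LPS library alone and was -0.78 without it.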

How the results depend on the processing

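The comparison of keratin-high cells with the rest was repeated under 14 alternatives and 4 more chosen after seeing the data (members chosen without PI3, pool cells with PRSS1, PRSS2, LCN15, SST or GCG left out, mitochondrial share under 4%, members at or over 1% left out). The count of genes passing, 1807 (1026 higher, 781 lower), was 1075 (638 and 437) with no replicate block for the library, 694 (438 and 256) with DESeq2, 647 (353 and 294) with cells thinned to 1500 UMIs and 673 (384 and 289) with the mitochondrial share under 4%. The thinned and low-mitochondrial fits tested fewer UMIs or cells, and the cause of the other differences was not tested. Without 1 library it lay between 1317 and 1476, with 756 to 846 higher and 561 to 645 lower, and elsewhere between 1255 and 2009. With no filter on low counts the balance turned, to 840 higher and 906 lower. Genes passing in both the main comparison and an alternative had the same direction in every alternative, but the alternatives reuse the same libraries, so this is no independent support. RARRES2 stayed between 1.95 and 3.20. Of 128 named genes past the threshold, 115 passed with no replicate block, 100 of 124 with DESeq2, 82 of 103 with thinned cells and 90 of 115 with the lower mitochondrial share. Directions turned for MT2A (-0.78 to 1.18 when 1 library was left out, the lower without LPS, and -0.12 with the mitochondrial share under 4%), APOA4 (0.37 with APOA1 plus APOC3 under 0.2%), and, not called in the main comparison, DSP (-0.0807 thinned), ITGB1 (0.0378 without PI3) and MUC13 (-0.29 with the top 10% chosen, -0.0893 without PI3, -0.0539 without secretory cells). For LPS, a 2-fold limit left 14 genes higher and 1 lower, a minimum of 100 UMIs 7 and 8, thinned cells 9 higher, and the rest of the pool had 49 higher. Depth limits SERPINB3, GRHL3 and other genes held by few members.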

Other observations

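Stress and lipid genes moved in part. Of 17 genes of the unfolded protein and heat response, 7 fell, among them HSPA5, ATF4, DDIT3 and ASNS, and 4 rose, all of them heat shock genes (HSPA1A, HSPA1B, HSPH1 and HSPB1). Of 16 sterol and fatty acid genes 4 rose and 4 fell. Those that rose included SREBF1 (log2 fold change 0.94) and SCD (stearoyl-CoA desaturase). SCD was at 3383, 4980 and 4724 CPM in keratin-high cells against 2396, 3353 and 3190 CPM in the rest (0.58). Those that fell included SQLE and FDFT1, and the other 8 genes of the list did not pass. Of 24 hypoxia and glycolysis genes 2 rose and 4 fell, where 10.3% of all genes rose and 7.84% fell. Of 6 antimicrobial defence genes tested 1 rose and 3 fell (REG4, PRSS1 and PRSS2, which reached the low-count filter in all 3 libraries only in the rest). The one that rose, DEFB1, a constitutive epithelial defensin, was at 129, 103 and 84.8 CPM against 29.7, 29.2 and 33.7 CPM (1.83, SE 0.16), while the NRF2 and metallothionein list had 1 of 14 higher (MT2A, in the LPS library alone) and 6 lower, of which AKR1B10 and MT1F reached it only in the rest.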
